A study of Rattus norvegicus with 24 samples.

Results

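The proteins described here are laid down in, or guard, mineralizing matrix: the phosphorylated glycoproteins Ibsp, Spp1, Mepe and Dmp1 (the SIBLING family), the collagen-binding protein Sparc (osteonectin), and the vitamin K-dependent Gla proteins Bglap (osteocalcin) and Mgp (matrix Gla protein). Members were taken by gene symbol, as every probe set that the platform annotation assigns to 1 of these 7 genes. They are 7 of 14218 genes named by 1 symbol, and they had 8 probe sets, of which Sparc had 2. The choice used no measured value.

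The 24 arrays measured RNA from the proximal tibial cartilage of rats aged 1 week, whose frozen 60 µm sections had been divided by hand into zones. The 5 groups were epiphyseal cartilage (n = 4, animals 1, 2, 4 and 5) and the resting zone, the proliferative zone, the proliferative-hypertrophic transition zone (below, transition zone) and the hypertrophic zone (n = 5 each, animals 1 to 5). By the labels, no strain is named and none of the animals used here had been castrated. Male rats are named for the resting, proliferative and hypertrophic arrays, whereas no sex is named for epiphyseal and transition arrays, so in a comparison that crosses this line the zone and whatever the wording stands for cannot be told apart. The zones are tissue slices that hold whatever cells the scalpel took. Between such pieces, more cells of a type and more RNA per cell cannot be told apart.

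In a growth plate, resting chondrocytes give rise to columns of dividing cells that stop dividing, enlarge and mineralize the matrix around them before vessels, osteoclasts and osteoblasts replace it with bone. The SIBLING proteins are acidic, carry the RGD sequence that integrins bind and attach to hydroxyapatite. Ibsp can nucleate crystals, whereas Spp1 restrains their growth and anchors osteoclasts to mineral. Mgp is a well-known inhibitor of cartilage and artery calcification.

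The 4 SIBLING genes are neighbours on chromosome 14 of the rat assembly GRCr8, within 254 kb. In order along the chromosome they are Spp1 (chr14:5613569-5620695), Mepe (chr14:5725308-5736858), Ibsp (chr14:5744497-5757242) and Dmp1 (chr14:5833111-5867154). Sparc lies at chr10:40017065-40038816, Bglap at chr2:176136341-176137318 and Mgp at chr4:171497472-171500888. RefSeq promoter entries of GRCr8 matched 6 of the 7 members. The 250 bases before the start are shown for Ibsp (chr14:5757243-5757492, minus strand), Mepe (chr14:5736859-5737108, minus strand) and Bglap (chr2:176137319-176137568, minus strand). Ibsp and Mepe are SIBLING neighbours called higher in the hypertrophic than in the transition zone, as were Spp1 and Dmp1, whose windows are not shown. Bglap is a Gla protein gene whose signal was near the floor except in part of the hypertrophic arrays. Capitals mark the TATA motif TATAAA or TTTATA, the CCAAT motif CCAAT or ATTGG and the Runx core ACCACA or TGTGGT, searched on both strands; no 2 of the marked matches overlap.
Ibsp: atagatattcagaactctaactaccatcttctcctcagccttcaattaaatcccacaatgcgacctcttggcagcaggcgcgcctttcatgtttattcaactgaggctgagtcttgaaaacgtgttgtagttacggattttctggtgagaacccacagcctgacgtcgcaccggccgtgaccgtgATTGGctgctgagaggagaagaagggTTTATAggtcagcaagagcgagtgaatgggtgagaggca
Mepe: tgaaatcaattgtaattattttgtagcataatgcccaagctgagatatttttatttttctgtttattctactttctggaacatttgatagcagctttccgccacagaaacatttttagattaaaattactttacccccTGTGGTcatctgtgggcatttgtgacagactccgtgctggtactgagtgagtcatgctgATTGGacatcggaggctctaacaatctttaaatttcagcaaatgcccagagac
Bglap: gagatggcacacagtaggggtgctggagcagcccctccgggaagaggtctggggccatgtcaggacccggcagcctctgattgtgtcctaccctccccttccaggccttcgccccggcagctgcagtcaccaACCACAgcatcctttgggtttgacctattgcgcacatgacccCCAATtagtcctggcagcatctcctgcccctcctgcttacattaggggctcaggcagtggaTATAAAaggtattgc
Positions count back from the base before the start, and give the motif's most upstream base. The Ibsp window held ATTGG at -65 and TTTATA at -39, the Mepe window TGTGGT at -112 and ATTGG at -53, and the Bglap window ACCACA at -118, CCAAT at -76 and TATAAA at -15. Of 33469 promoter windows of this length, 12.9% held the TATA motif, 34.0% the CCAAT motif and 14.5% the Runx core, on either strand. Among the windows not shown, that of Spp1 held TATAAA at -204, that of Sparc ACCACA at -205, and that of Dmp1 no match. The matches are descriptions of these letters and not measured sites.

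The deposited values are MAS5 signals on a linear scale, in arbitrary units. Array medians lay between 135.3 and 244.6. The 3' over 5' ratio of actin, which rises as RNA degrades, had a log2 mean of 4.46 ± 0.185 (SD, n = 5) for transition arrays and 4.308 ± 0.303 (n = 5) for hypertrophic arrays, with zone means from 4.027 to 4.47. Chondrocyte markers were present throughout: all 8 measured genes of that list, Col2a1 and Acan among them, lay above the array median in every array. Testing required a signal higher than the array median in 4 or more arrays, and 19213 probe sets met this. All members but Bglap were tested, and Bglap (1369142_at) lay above the median in 1 of 24 arrays. Mepe did so in 6 arrays, the 5 hypertrophic ones and 1 of the transition zone, so it entered the test through the zone where it is high, and counts of members carry no weight of their own. Fold changes and tests are from limma on log2(signal + 16) with the animal as a block. A probe set is called when its Benjamini-Hochberg adjusted p, taken over all probe sets tested, is below 0.05 and its fold at least 2. The added 16 makes changes of dim genes look smaller than they are.

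**Figure D1:**
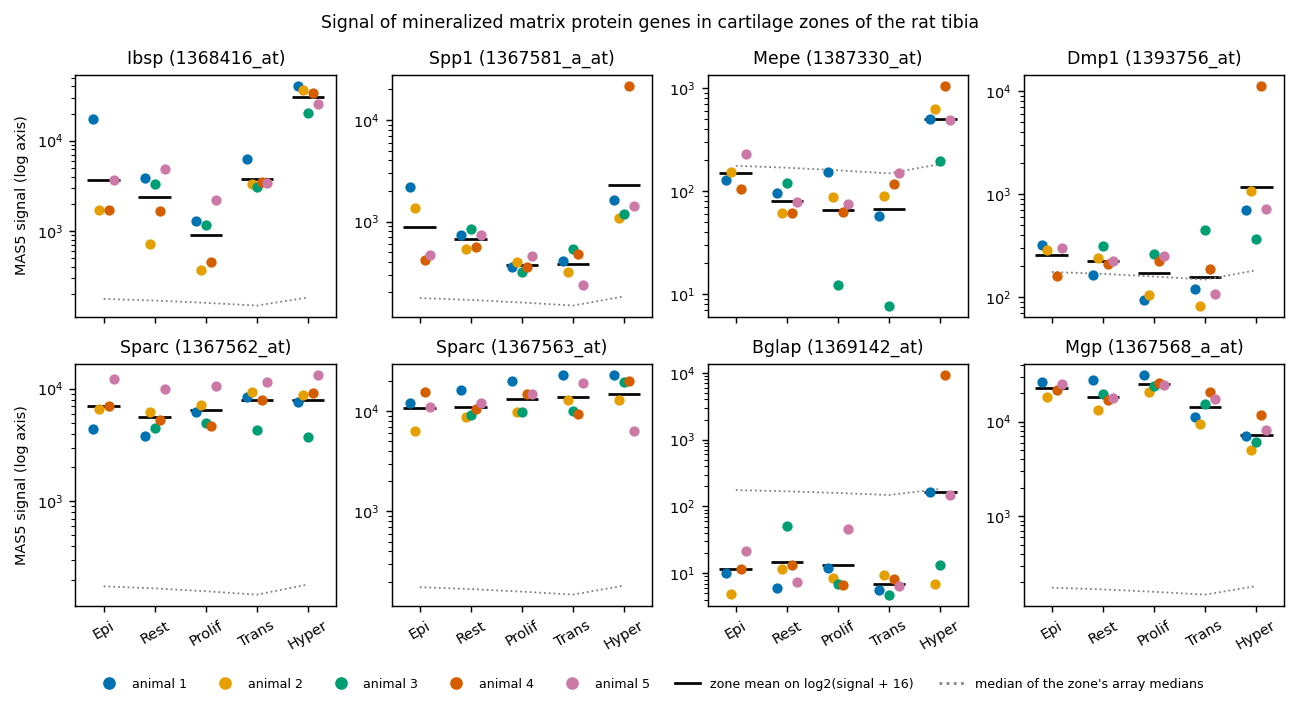
Signal of the 8 member probe sets (y axis, MAS5 signal, log scale) in epiphyseal cartilage (Epi), resting (Rest), proliferative (Prolif), transition (Trans) and hypertrophic (Hyper) zones, 1 point an array coloured by animal, bars at zone means on log2(signal + 16). Ibsp, Spp1, Mepe, Dmp1 and Mgp part the hypertrophic zone from the proliferative zone in all 5 animals, and Bglap does not. Spp1, Dmp1 and Bglap have 1 hypertrophic point, animal 4, far above the rest.

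Ibsp, bone sialoprotein, separated the later zones of the growth plate from one another. Its signal (1368416_at) in the hypertrophic arrays of animals 1 to 5 was 40876.7, 36878.8, 20441.6, 33550.9 and 25411.8. In the transition zone it was 6228.1, 3299.8, 3030.5, 3460.6 and 3426.4, and in the proliferative zone 1272.5, 371.6, 1174.2, 453.6 and 2219.6. These 3 zones did not overlap in any array, and the order of hypertrophic over transition over proliferative held within each animal. In the resting zone the signal was 3852.9, 709.2, 3334.2, 1678.0 and 4866.4, and in epiphyseal cartilage 17185.2, 1698.5, 1703.3 and 3637.1 (animals 1, 2, 4 and 5). The resting and epiphyseal arrays overlapped each other and the transition zone, and the epiphyseal array of animal 1 stood 4.73 times above the next of its group.

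The lowest Ibsp level was thus in the proliferative zone, with higher values on both sides of it. From the resting to the proliferative zone Ibsp fell by 1.39 ± 0.39 (SE) on the log2 scale (limma, adjusted p = 0.0178) and was lower in 5 of 5 animals. That call is lost without the animal block (adjusted p = 0.0922), without animal 3 (adjusted p = 0.0591) and without animal 4 (adjusted p = 0.0624). Muscle markers were high in part of the resting arrays: over the 9 genes on the array their summed signal was 42777.3, 10255.7, 80160.6, 11936.0 and 56499.8 in resting arrays 1 to 5 and 5293.5 to 14429.3 in the proliferative zone. The resting arrays of animals 1, 3 and 5, with the larger sums, were also those with the higher Ibsp signals. In the proliferative zone the same animals read higher for Ibsp, though animal 3 had the lowest muscle sum there (5293.5). Within animals, the largest Ibsp fall was in animal 4 (-1.85) and the smallest in animal 2 (-0.9), both with small resting sums. Of the 8 muscle genes tested, 5 were called lower in the proliferative zone, with a list median of -2.07 against 0.02 over all genes. The part of muscle tissue in the Ibsp difference was not tested. From the proliferative to the transition zone Ibsp rose by 2.05 ± 0.39, or 4.14-fold (adjusted p = 0.000437). From the transition to the hypertrophic zone it rose by a further 3.02 ± 0.39, or 8.1-fold (adjusted p = 4.81e-06), and the difference within an animal ran from 2.71 to 3.48. The hypertrophic and proliferative zones, whose labels are worded alike, differed by 5.07 ± 0.39, or 33.5-fold (adjusted p = 2.87e-10). Ibsp was also 12.8-fold higher in the hypertrophic than in the resting zone (adjusted p = 4.28e-08) and 8.27-fold higher than in epiphyseal cartilage (adjusted p = 4.82e-06).

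Epiphyseal cartilage had more Ibsp than the proliferative zone, with a proliferative minus epiphyseal value of -2.02 ± 0.42 (adjusted p = 0.00146), in a comparison where 5.12% of all probe sets were called lower. With epiphyseal animals 1 and 2 left out the value was -1.40 and the call was lost (adjusted p = 0.0626). Those 2 arrays read highest of the 4 for Acp5, an osteoclast acid phosphatase, at 22486 and 6034.7 against 832.6 and 349.6 for animals 4 and 5. Only animal 1 was high for Ibsp (17185.2). Animal 2 read lowest of the 4 (1698.5), below animals 4 (1703.3) and 5 (3637.1). Over the 10 osteoclast markers on the array the summed signal ran from 5496.2 to 63876.6 in epiphyseal cartilage. The part of those cells in the epiphyseal Ibsp values was not tested.

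Spp1, osteopontin, is made by hypertrophic chondrocytes, osteoblasts and osteoclasts. Its hypertrophic signals (1367581_a_at) in animals 1 to 5 were 1625.2, 1092.0, 1180.8, 21853.3 and 1415.9. Those of the transition zone were 409.3, 317.7, 534.5, 474.0 and 239.2, and those of the proliferative zone 353.3, 399.8, 319.8, 357.4 and 455.5. All hypertrophic arrays lay above every array of both zones, and animal 4 was 16.8 times the median of the other 4. Spp1 rose 5.87-fold from the transition to the hypertrophic zone (log2 2.55 ± 0.53, adjusted p = 0.00104), and without the hypertrophic array of animal 4 the difference was 1.68 ± 0.31 (adjusted p = 0.000347). Against the proliferative zone the values were 2.57 ± 0.53 (adjusted p = 0.000412) with that array and 1.70 ± 0.31 without it.

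In the resting zone Spp1 read 742.0, 538.2, 849.3, 557.9 and 733.5, every array above all of the proliferative zone. That difference was -0.82 ± 0.53 on the log2 scale and did not pass (adjusted p = 0.344). Hypertrophic over resting was 1.75 ± 0.53 (adjusted p = 0.00961) with all arrays and 0.88 (adjusted p = 0.0268), below the 2-fold limit, without the hypertrophic array of animal 4. In epiphyseal cartilage Spp1 read 2183.2 and 1356.0 in animals 1 and 2 and 421.4 and 473.1 in animals 4 and 5. The hypertrophic minus epiphyseal difference was 1.40 ± 0.57 and not called (adjusted p = 0.0666). With epiphyseal animals 1 and 2 left out it was 2.61 (adjusted p = 0.00497). Those arrays had the highest epiphyseal Spp1, so a larger difference follows from the choice and carries no weight of its own. That fit had animals 4 and 5 alone for epiphyseal cartilage and kept the hypertrophic array of animal 4. Transition minus epiphyseal was -1.15 ± 0.57 (adjusted p = 0.134) and proliferative minus epiphyseal -1.18 ± 0.57 (adjusted p = 0.183). Neither was called with all arrays, and both were called without the hypertrophic array of animal 4, at -1.21 (adjusted p = 0.00428) and -1.23 (adjusted p = 0.0069). That array belongs to neither comparison, and the estimates changed little. All zones share a spread in the fit, and the SE of Spp1 was smaller without that array. The resting to proliferative difference of Spp1 was judged by the same wider spread.

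Mepe, a phosphoglycoprotein of osteoblasts and osteocytes that is cleaved to mineral-binding peptides, was dim outside the hypertrophic zone. Its hypertrophic signals (1387330_at) were 500.4, 624.2, 196.5, 1063.4 and 493.7. The transition arrays read 56.6, 90.2, 7.7, 118.0 and 150.7, and the proliferative arrays 153.5, 86.8, 12.3, 62.4 and 75.4. No hypertrophic array overlapped either zone, and animal 3 read lowest in all 3. Mepe entered the test through its hypertrophic arrays. Its adjusted p for that zone thus depends on the filter and is given as a description. Mepe rose 6.24-fold from the transition to the hypertrophic zone (log2 2.64 ± 0.42, adjusted p = 5.63e-05). Without the hypertrophic array of animal 4 the difference was 2.39 ± 0.45. It was 6.42-fold higher than in the proliferative zone (adjusted p = 1.56e-05) and 5.4-fold higher than in the resting zone (adjusted p = 4.41e-05), where the arrays read 61.0 to 120.1. Epiphyseal arrays read 105.1 to 228.4 and overlapped the lowest hypertrophic array, with a difference of 1.92 ± 0.45 (adjusted p = 0.00195).

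Dmp1, which osteocytes make and which binds mineral and calcium, followed the same direction with less regularity. The hypertrophic signals (1393756_at) of animals 1 to 5 were 703.0, 1076.3, 367.0, 11406.1 and 714.0. In the transition zone they were 120.7, 83.1, 449.7, 188.2 and 107.6, and in the proliferative zone 94.2, 105.3, 264.2, 226.5 and 249.3. Animal 4 read 16.1 times the median of the other 4 hypertrophic arrays, and animal 3 had less signal in its hypertrophic array than in its transition array. Dmp1 rose 6.91-fold from the transition to the hypertrophic zone (log2 2.79 ± 0.55, adjusted p = 0.000605), in 4 of 5 animals. The difference without the hypertrophic array of animal 4 was 1.96 ± 0.39 (adjusted p = 0.000622). Against the proliferative zone it was 2.67 ± 0.55 (adjusted p = 0.000395) with that array and 1.84 ± 0.39 without it, and here the 2 zones did not overlap. Resting arrays read 165.6 to 317.8 and epiphyseal arrays 159.3 to 322.7, and both groups lay below every hypertrophic array. Hypertrophic over epiphyseal was 2.08 ± 0.59 (adjusted p = 0.00876), and 0.96 and not called without animal 4 (adjusted p = 0.118).

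Across the step from the transition to the hypertrophic zone, then, the 4 SIBLING probe sets were called higher. Over all probe sets tested 6.78% were called higher in that comparison and 2.49% lower. Mepe entered the test through the hypertrophic zone, so the count of 4 carries no weight of its own. From the transition zone backwards the family parted: Ibsp alone was called between the proliferative and the transition zone, with a background of 3.11% called higher. The other 3 had differences there of 0.02 ± 0.53 (Spp1), 0.04 ± 0.42 (Mepe) and -0.12 ± 0.55 (Dmp1), with 95% intervals from -1.07 to 1.11, -0.82 to 0.91 and -1.25 to 1.01. Whether Ibsp differed from them in that step was not tested, since probe sets are not compared with each other. Between the resting and the proliferative zone Ibsp was the member called lower, against 4.12% of all probe sets. The limma fit called no member between the resting zone and epiphyseal cartilage, with 0 of the 7 probe sets at an unadjusted p below 0.05, where 1.51% of all probe sets were called in either direction.

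Sparc, a secreted calcium- and collagen-binding protein abundant in bone, was bright in every zone, with small differences between zones. Its probe set 1367562_at read 7547.2, 8754.3, 3753.4, 9218.5 and 13329.5 in the hypertrophic zone and 8411.2, 9320.0, 4301.2, 7861.5 and 11534.4 in the transition zone. Animal 3 was lowest and animal 5 highest in both zones. The difference was 0.00 ± 0.17 on the log2 scale, with a 95% interval from -0.35 to 0.34, which stays short of 2-fold in both directions. Its resting arrays read 3784.7 to 9916.7, and hypertrophic over resting was 0.49 ± 0.17 (adjusted p = 0.0209), or 1.4-fold and below the call limit. The second probe set, 1367563_at, read 6323.2 to 22819.6 in the hypertrophic zone and 9234.6 to 23025.9 in the transition zone, with a difference of 0.09 ± 0.26 (95% interval -0.43 to 0.62). In the hypertrophic zone animal 5 was the highest array by the first probe set and the lowest by the second, and over the 24 arrays the r between the 2 probe sets was -0.015. Their moderated F tests across the 5 zones gave adjusted p of 0.0492 and 0.329. The F test passed for 6 of the 7 tested member probe sets, and for 55.6% of all probe sets. Mepe, which entered the test through the hypertrophic zone, is among the 6, so this count too carries no weight of its own.

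Bglap, the Gla protein of mature osteoblasts, was near the floor of the arrays except in 3 of the hypertrophic zone. The hypertrophic signals of animals 1 to 5 were 164.7, 7.0, 13.5, 9393.4 and 146.6. The transition arrays read 4.8 to 9.5, the proliferative arrays 6.7 to 45.6, the resting arrays 6.0 to 50.3 and the epiphyseal arrays 4.9 to 21.8. Animals 2 and 3 had hypertrophic values within the range of the other zones, and all arrays but that of animal 4 read below their array median. Bglap was not tested under the rule for low signal. With no such rule its hypertrophic minus transition value was 2.98 ± 0.85 (adjusted p = 0.0177) and its hypertrophic minus proliferative value 2.61 (adjusted p = 0.0253). Leaving out the hypertrophic array of animal 4 as well gave 1.53 (adjusted p = 0.0342) and 1.16 (adjusted p = 0.0908).

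Mgp, the inhibitor of calcification, went the other way. Its hypertrophic signals (1367568_a_at) were 7070.6, 4974.4, 6037.2, 11743.9 and 8138.8, those of the transition zone 11271.0, 9358.1, 15245.7, 20566.6 and 17167.1, and those of the proliferative zone 31445.1, 20450.7, 23910.9, 25882.7 and 24582.6. Within each animal the signal was lower in the transition than in the proliferative zone and lower again in the hypertrophic zone. Mgp fell by 1.78 ± 0.18 on the log2 scale, 3.43-fold, from the proliferative to the hypertrophic zone (adjusted p = 1.72e-08) with no overlap. It was the tested member called lower there, in a comparison where 9.07% of all probe sets were called lower and 9.59% higher. The 2 single steps were each below 2-fold, at -0.82 ± 0.18 (adjusted p = 0.00129) into the transition zone and -0.96 ± 0.18 (adjusted p = 0.000283) out of it. The latter lies close to the limit, and scaling the arrays to one median takes it to -1.23, which is called. It is also called without the hypertrophic array of animal 4 (-1.11) and without animal 1 (-1.03).

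The resting zone read 13317.5 to 27581.1 for Mgp and epiphyseal cartilage 18411.9 to 26162.6. Hypertrophic cartilage was 2.53-fold below the resting zone (adjusted p = 1.02e-06) and 3.09-fold below epiphyseal cartilage (adjusted p = 3.55e-07). In hypertrophic against resting, 11.8% of all probe sets were called lower and 9.32% higher, and in hypertrophic against epiphyseal 8.41% and 6.47%. Proliferative over resting was 0.44 ± 0.18, higher in 5 of 5 animals but not past the test (adjusted p = 0.0991). Transition minus epiphyseal was -0.67 (adjusted p = 0.00923), below the 2-fold limit, and limma called no member in that comparison, with 1 of 7 probe sets (Mgp) at an unadjusted p below 0.05, against 13.8% of all probe sets. The comparisons of the hypertrophic zone share its 5 arrays and are not independent of each other.

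**Figure D2:**
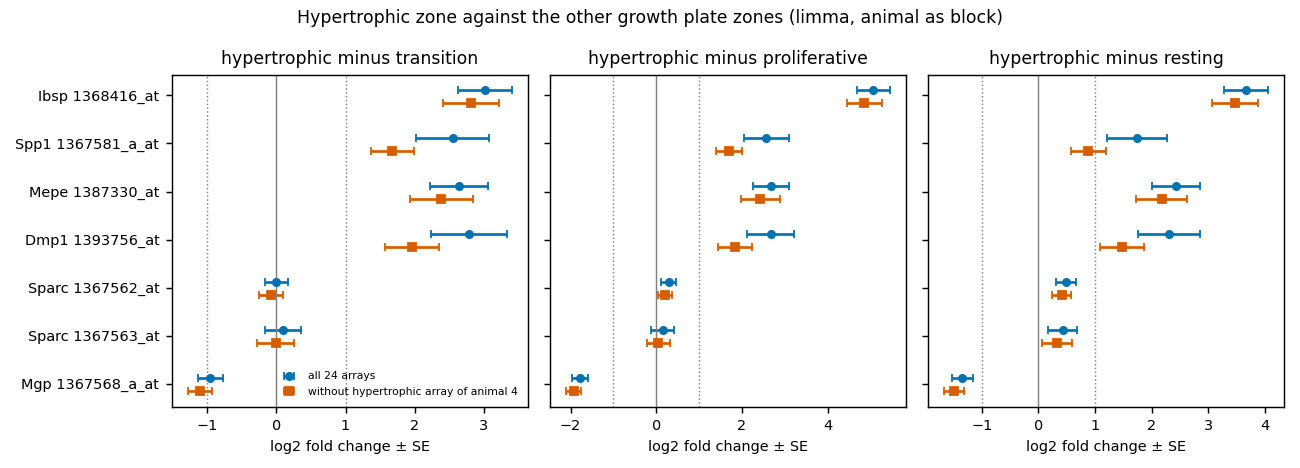
Log2 fold changes (x axis, ± SE) of the 7 tested member probe sets for the hypertrophic zone against the transition, proliferative and resting zones, with all 24 arrays (circles) and without the hypertrophic array of animal 4 (squares). Dotted lines mark 2-fold. The SIBLING probe sets lie to the right and Mgp to the left, and without that array Spp1 moves from 2.55 to 1.68 against the transition zone while Ibsp moves from 3.02 to 2.82.

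The hypertrophic array of animal 4 differed from the other 4 in part of the members. Spp1 and Dmp1 read 16.8 and 16.1 times the median of the others, Mepe 2.14 times and Mgp 1.79 times. Bglap read 9393.4 against 7.0 to 164.7, values too dim for a fold. Ibsp, at 1.08 times, and the Sparc probe sets, at 1.13 and 1.24 times, lay within the range of the other 4. Several markers of bone cells were high in the same array, though not all. Phex, an osteocyte and osteoblast endopeptidase, read 3706.9 against 110.3 to 408.6. Col1a1, the bone and fibrous tissue collagen chain, read 39364 against 3515.6 to 13606, and Ctsk, the collagen-degrading protease of osteoclasts, 28896 against 692.8 to 2505.1. Of the osteoblast list, Col1a2 and Postn were also above the other arrays, Omd lay within their range (1121.3 against 262.0 to 1763.7) and Smpd3 lay below them (7257.4 against 10720 to 14616).

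Over whole marker lists, leaving out the members, the summed signal of the 5 osteoblast genes on the array was 119563.5 in animal 4 and 35801.8 to 50613.9 in the other hypertrophic arrays. For the 4 osteocyte genes it was 5772.8 against 463.5 to 914.5, for the 10 osteoclast genes 82713.9 against 12570.4 to 17297.1, and for the 8 fibroblast genes 60440.1 against 8071.6 to 13717.3. Of the 4 osteocyte genes, 2 lay above the array median in animal 4, Phex (3706.9) and Pdpn (2013.8). They gave most of the osteocyte sum. Erythroid markers did not stand apart, at 20912.3 against 9991.7 to 34348.5. The sum over hypertrophic chondrocyte markers lay within the range of the others, at 134866.6 against 121054.3 to 254670.9, but its genes parted: Ihh (6203.6 against 10515 to 12716) and Alpl (5633.7 against 7534.1 to 8637.8) lay below the other arrays and Mmp13 (24692 against 7704.5 to 13034) above them. The sum over chondrocyte markers was lowest in animal 4, at 225731.6 against 238888.1 to 555452.4. No marker was listed at 0 in any array. Bone and fibrous tissue markers thus moved with Spp1, Dmp1 and Bglap in that array, and their part in those values was not tested. Without it Spp1, Dmp1 and Ibsp kept their calls in the hypertrophic against the transition zone. So did Mepe, which had entered the test through the hypertrophic zone.

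**Figure D3:**
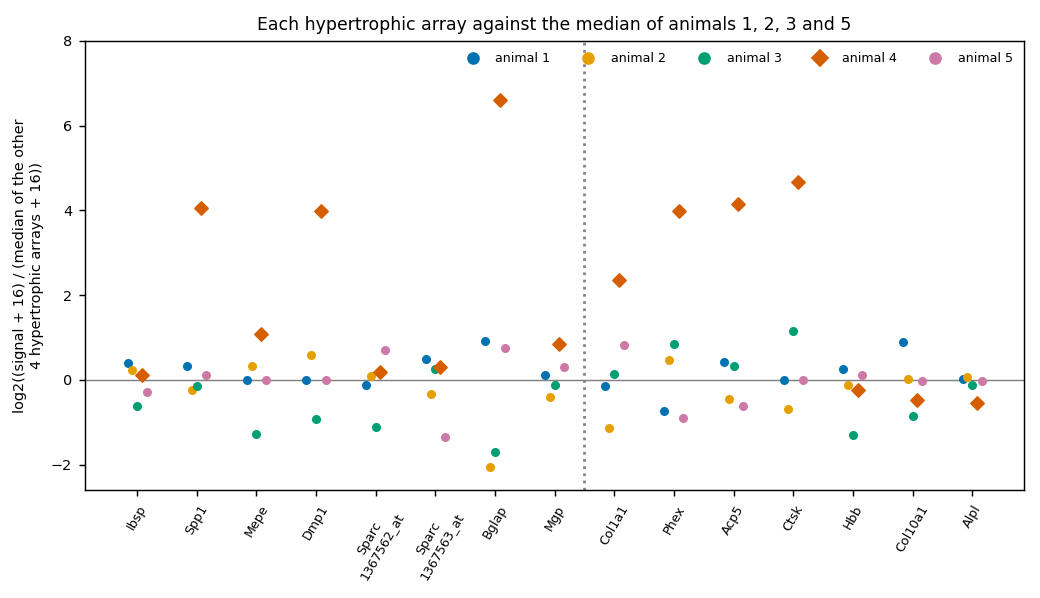
Each of the 5 hypertrophic arrays relative to the median of animals 1, 2, 3 and 5 (y axis, log2 ratio after adding 16), for the member probe sets (left of the dotted line) and for Col1a1, Phex, Acp5, Ctsk, Hbb, Col10a1 and Alpl (right). The diamond of animal 4 stands above the other arrays for Spp1, Dmp1, Bglap, Col1a1, Phex, Acp5 and Ctsk, and within or below them for Ibsp, Hbb, Col10a1 and Alpl.

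The other 4 hypertrophic arrays also held more osteoclast, osteoblast, erythroid and leukocyte marker signal than the transition zone. Osteocyte and fibroblast sums did not part the zones in this way. Hypertrophic animal 5 read 463.5 for the osteocyte list, against 328.6 to 568.5 in the transition zone. It read 8071.6 for the fibroblast list, against 8510.8 to 11096.0. For the osteoclast list the transition arrays ran from 2491.2 to 4464.0, below all 5 hypertrophic arrays, and 5 of its 7 tested genes were called higher in the hypertrophic zone, among them Acp5 (log2 3.61 ± 0.81, adjusted p = 0.002). Without the hypertrophic array of animal 4 the count was again 5 and the Acp5 difference 2.62 ± 0.68 (adjusted p = 0.00652). For the osteoblast list the transition arrays ran from 25010.0 to 32516.8, also below all hypertrophic arrays, and 3 of 5 genes were called higher, led by Col1a1 (2.64 ± 0.40, adjusted p = 3.46e-05) and Col1a2 (2.36 ± 0.26, adjusted p = 6.54e-07). Without that array 2 of the 5 were called higher, Col1a1 (2.13 ± 0.33) and Col1a2 (2.05 ± 0.23), while Postn was not (1.10 ± 0.59, adjusted p = 0.187). Another gene of that list, Omd, a keratan sulphate proteoglycan of bone, fell by 2.61 ± 0.31 (adjusted p = 1.38e-06). Erythroid sums ran from 1156.8 to 5764.9 in the transition and from 9991.7 to 34348.5 in the hypertrophic zone. Leukocyte sums ran from 476.1 to 2012.3 and from 2289.2 to 9656.6. Their part in the members' rises was not tested.

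Genes that supply or process the mineral were followed in a list of 15, of which 12 were tested. From the proliferative to the transition zone 3 were called higher, with a list median of 0.06 against -0.03 over all genes. These were Alpl, the phosphatase that breaks down pyrophosphate (log2 4.51 ± 0.33), Phospho1, the phosphatase of matrix vesicles (2.88 ± 0.23), and Smpd3, a sphingomyelinase needed for bone mineralization (1.20 ± 0.20, adjusted p = 0.000132). From the transition to the hypertrophic zone 4 were called higher and 1 lower, with a median of 0.30 against -0.01. Bmp1, a protease that processes procollagen and cleaves Dmp1, rose by 2.14 ± 0.14 (adjusted p = 3.43e-10) and Alpl by a further 1.35 ± 0.33 (adjusted p = 0.00423). Phospho1 differed by 0.02 ± 0.23 in that step.

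The remaining called genes of the list were picked out after their values were seen. Slc20a1, a phosphate carrier, rose by 1.13 ± 0.17 (adjusted p = 3.04e-05). Phex rose by 2.15 ± 0.60 (adjusted p = 0.0107), and by 1.26 ± 0.44 (adjusted p = 0.0416) without the hypertrophic array of animal 4. Vkorc1, which recycles the vitamin K that Gla proteins need, fell by 1.21 ± 0.17 (adjusted p = 1.28e-05). Ggcx, the carboxylase that uses this vitamin K, differed by -0.18 ± 0.17 (adjusted p = 0.518). The Vkorc1 signal was 3019.2 to 7755.1 in the hypertrophic and 7004.5 to 14425 in the transition zone, the same direction as its client Mgp.

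Of the receptors that bind these matrix proteins, 8 of 9 were tested. From the transition to the hypertrophic zone 4 were called higher, with a list median of 0.64 against -0.01 over all genes. Itgb3, the integrin chain that binds Ibsp and Spp1 and is plentiful on osteoclasts, rose by 4.40 ± 0.59 (adjusted p = 7.17e-06), from signals of 112.3 to 267.1 to signals of 1930 to 10780. Its partner Itgav rose by 1.09 ± 0.24 (adjusted p = 0.00151), and by 0.85 and below the 2-fold limit without the hypertrophic array of animal 4. Stab1, a scavenger receptor that takes up Sparc, rose by 2.27 ± 0.48 (adjusted p = 0.00126). Cd44, a hyaluronan receptor that can bind Spp1, named after its value was seen, rose by 2.14 ± 0.59 (adjusted p = 0.0105). Ddr2, a collagen receptor, fell by 2.16 ± 0.27 between the proliferative and the hypertrophic zone (adjusted p = 7.24e-07). From the transition to the hypertrophic zone its difference was -0.94 ± 0.27 (adjusted p = 0.0129), and -1.31 ± 0.21 and called without the hypertrophic array of animal 4.

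Of 10 transcription factors listed for mineralizing cells, 5 were tested, and the others did not pass the rule for low signal or were not analysed here. From the proliferative to the transition zone 1 was called higher, Mef2c (1.51 ± 0.16, adjusted p = 1.88e-07), a driver of chondrocyte hypertrophy. From the transition to the hypertrophic zone Dlx3, a homeobox factor of bone and skin, rose by 1.85 ± 0.27 (adjusted p = 2.05e-05) and Runx3, a Runx factor of maturing chondrocytes, fell by 1.21 ± 0.17 (adjusted p = 1.16e-05). Dlx5, another homeobox factor, differed by -0.71 ± 0.33 there (adjusted p = 0.133). The list median of that step was -0.12 against -0.01 over all genes.

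**Figure D4:**
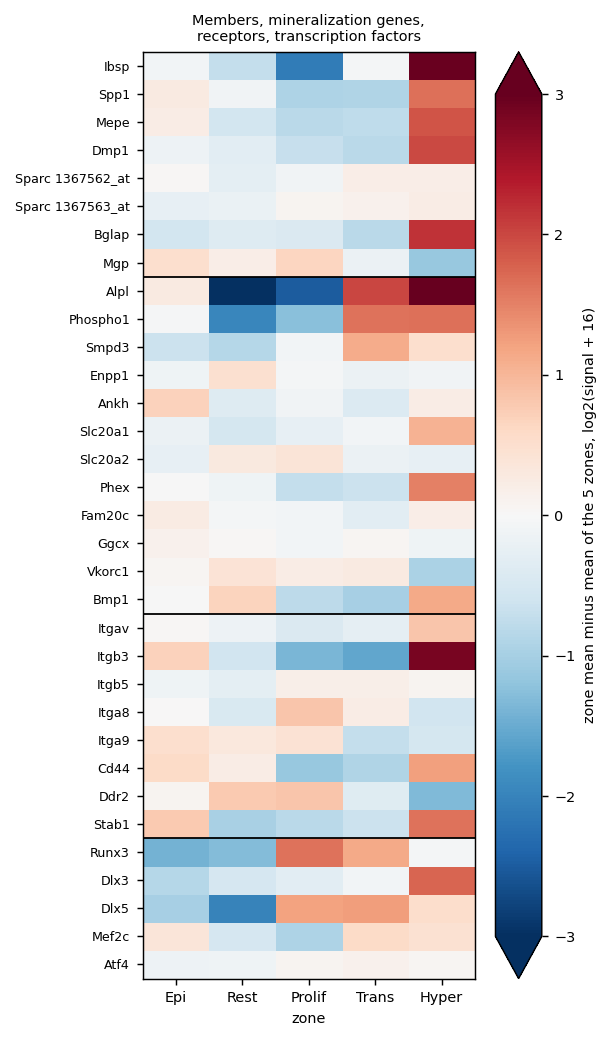
Zone means of log2(signal + 16) minus each gene's mean over the 5 zones (colour, cut at 3 in either direction) for the members, and below the black lines for tested genes of the mineralization, receptor and transcription lists. Ibsp, Spp1, Mepe, Dmp1 and Bglap are darkest red in the hypertrophic zone and Mgp and Vkorc1 are blue there, while Alpl, Phospho1 and Smpd3 are already red in the transition zone.

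Genes with the pattern most like each member were sought by Pearson r of log2(signal + 16) over the 24 arrays, which come from 5 animals and share zones, so r is given as a description. Ibsp lay closest to Col1a2 (r = 0.913, and 0.915 without the hypertrophic array of animal 4), Atp6v1h, Srl and Ackr3. Spp1 lay closest to Tmem119, a membrane protein of osteoblasts (0.929, and 0.845 without that array), Ano6, Ifitm3 and Slit2, and without that array closest to Maf (0.93), Igf1, Itgb3 and Kctd12. Mepe lay closest to Sp140 (0.841), Plac8, Zeb2 and Ptpn3. Mgp lay closest to Dap3 (0.882), Clstn1, Adgrl1 and Tgfbi, and Sparc (1367563_at) to Nme2 (0.76), Lman2, Ap2m1 and Cd63.

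For Bglap, and for part of the genes closest to Dmp1, r was much lower without that array. Dmp1 lay closest to Serpinf1, a secreted antiangiogenic factor (0.845, and 0.593 without it), Gpx3 (0.843, and 0.60), Ptprz1 (0.843, and 0.749) and Ifitm1 (0.838, and 0.786). Bglap lay closest to Gpx3 (0.833, and 0.502), Serpinf1 (0.832, and 0.464), Col22a1 (0.815, and 0.37) and Kazald1 (0.796, and 0.132). Among the members, Dmp1 and Spp1 had r = 0.891, or 0.716 without the array, and Bglap and Spp1 0.822, or 0.438. Ibsp and Mgp had r = -0.671 with the array and -0.673 without it.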

How the data were processed

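Total RNA of hand-dissected zones (50 to 100 ng) was amplified, labelled and hybridised to Affymetrix arrays, per the labels' protocols. Each deposited value is an intensity, the linear MAS5 signal of a probe set, as the submitters' processing notes name it. Its version was not stated in the sources here, and detection p-values were not used. The mean signal without the extreme 2% lay between 500.1 and 500.2 in every array, as after scaling to one trimmed mean. Precision is set by the number of arrays.

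Of 31099 probe sets, 57 controls were left out and 19213 (61.8%) tested. Probe sets were named from the platform annotation, with symbols brought up to date through gene identifiers in the GRCr8 table. Where a list gene had several tested probe sets, the one with the highest mean was used. A linear model of log2(signal + 16) was fitted to all 24 arrays with limma 3.58.1 (R 4.3.3; moderated statistics with a trend), with the animal as fixed block and 15 residual degrees of freedom, and tested on simulated data. Each sample's description names its animal by number. Deviations from zone means correlated at a median r of 0.176 between arrays of 1 animal (46 pairs) and -0.046 between animals (184 pairs). No arrays were duplicates (at most 50 identical values between any 2). Figures used matplotlib 3.10.9 in Python 3.11.15.

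The members, gene lists and tests were chosen with earlier results of these data known. The text names all members and, from the lists, mostly genes among the 4 with the smallest F-test p, plus those it says were picked later. Ctsk, Postn, Mmp13, Col2a1, Acan and Col10a1 ranked lower in their lists and were named outside that rule. Car2, Mmp9, Panx3 and Pth1r ranked among the 4 but were not described, nor were Matn1, Comp, Hapln1 and Cnmd of the chondrocyte list. The 4 of the fibroblast list were not named, and of the erythroid list only Hbb was. No gene was named from the macrophage, leukocyte, endothelial and muscle lists. For each member, 4 genes of highest r were named. Comparisons of the hypertrophic and the proliferative zone with epiphyseal cartilage and of the transition with the resting zone were added after the data were seen. Alternatives changed the pseudocount (1 or 64), normalization, filter, block, arrays in the fit, trend, weights and fold minimum, and left out each animal or single arrays.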

Additional observations from a re-analysis of the deposited data

Results flagged for a closer look

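Within each zone, the highest or lowest array was compared with the rest in 55 groups of 4 or 5 arrays (the members' levels and marker list means), and 5 stood far from the others, where chance gives about 1 in 20. The Ibsp level on the log2(signal + 16) scale was 12.61 in the transition array of animal 1, whose gap to the next array took 0.816 of the group's range. The Spp1 level was 14.42 in the hypertrophic array of animal 4, with a gap of 0.868 of the range. In that array the mean log2 signal of the osteoclast markers was also apart, at 10.5 (0.714 of the range). The Bglap level was 6.05 in the resting array of animal 3 (0.734) and 5.94 in the proliferative array of animal 5 (0.786), both below the median of their arrays. The part of other cell types or of noise in these values was not tested.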

How the results depend on the processing

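No member reversed direction with a call under any alternative that tested it, and 1372 of 1400 single member values kept their side of the threshold. Mepe was not tested with the filter at the 75th percentile. It has no calls there, and those values are not among the 1400. Values called in neither fit count as kept, and the Bglap values compare fits without the filter. The fall of Ibsp from the resting to the proliferative zone made 1 call, with 0 when there was no replicate block and 0 to 1 when each animal was left out (0 without animal 3 or animal 4). Transition minus epiphyseal made 0 calls, and 1 (Spp1, -1.30, -1.21 and -1.21 on the log2 scale) with only the zones compared, array weights or without the hypertrophic array of animal 4. It also made 1 (Mgp) with no fold minimum and 0 to 1 when each animal was left out (1 without animal 4). Proliferative minus epiphyseal made 1 call, 2 with array weights or without the hypertrophic array of animal 4, 0 without the epiphyseal arrays of animals 1 and 2, and 1 to 2 when each animal was left out. With no fold minimum, transition minus proliferative made 2 calls and transition minus resting 1 in place of 0. For Spp1 in comparisons without hypertrophic arrays, leaving out the hypertrophic array of animal 4 acts through the spread shared by all zones and the animal block. The cause of the other changes was not tested. Dmp1 against epiphyseal cartilage was not called without animal 4 (0.96, adjusted p = 0.118). The replicate block changed no other call.

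Scaling to one median moved the median of all probe sets from 0.016 to -0.24 in hypertrophic minus transition, and the share of calls that were higher from 73.2% to 43.1%; quantile normalization gave 60.8%. In transition minus epiphyseal that scaling moved the share from 31.4% to 62.6% and the median from -0.073 to 0.216. The setting for Bglap with neither filter nor the hypertrophic array of animal 4 was chosen after seeing the data. Dim signals, as for Bglap in all arrays but 1 and Mepe outside the hypertrophic zone, limit what their folds can show.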
